A study of Homo sapiens with 6 samples.

Results

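The SLC25 genes encode the mitochondrial carriers, and 48 protein-coding rows of the count table carried a symbol of this family (SLC25A followed by a number), out of 40173 rows and 19756 rows of the type mRNA. The rows were found by symbol and not by their counts, though earlier results of these data were known when the members were chosen. The libraries came from A549, a cell line established from a human lung adenocarcinoma. FAM83H-AS1 is a long non-coding RNA studied as an oncogene of this tumor. The cells were transfected with an siRNA against it (silenced, n = 3) or with a negative control (control, n = 3), and were harvested a day later. Both groups therefore shared the cell line and the transfection itself. The comparison rests on 1 line and, as the methods describe it, on 1 siRNA. The labels do not say whether replicates were separate cultures, so that p-values measure the spread between these libraries, which may be technical.

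Mitochondrial carriers are small proteins of the inner mitochondrial membrane that swap or import solutes the membrane would otherwise hold back, among them ADP and ATP, phosphate, citrate and other carboxylates, amino acids, coenzymes, iron and glutathione. They are encoded in the nucleus, made in the cytosol without a cleaved signal in most cases, and inserted through the TOM complex of the outer membrane and the TIM22 complex of the inner membrane. In tumor cells they link glycolysis and biosynthesis in the cytosol to the citric acid cycle, and several substrates are served by a pair of close paralogs. A few members work elsewhere, such as the peroxisomal carrier SLC25A17 and the outer membrane protein SLC25A46.

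Library totals ranged from 9738291 to 17742643 counts, with control replicate 3 the deepest. FAM83H-AS1, the targeted RNA, had 141, 185 and 292 counts in the controls, and only 47, 48 and 75 after silencing, a level of 30.6% of the control (log2 fold change -1.70, SE 0.148, edgeR adjusted p = 7.99e-05). Levels below are in CPM, counts scaled to the library size after TMM normalization, and adjusted p-values come from the quasi-likelihood F test of edgeR with Benjamini-Hochberg adjustment over 15250 genes. Of the 5 epithelial markers, KRT8 and KRT18 were abundant, and KRT18 was the 1 marker that fell (log2 fold change -0.43, edgeR adjusted p = 0.00266). KRT19, EPCAM and CDH1 were low, with control means of 0.944, 3.86 and 0.78 CPM and silenced means of 0.731, 3.43 and 1.38 CPM. The 5 together ranged from 2927 to 3450 CPM in the control and from 2586 to 2624 CPM in the silenced libraries. Nearly all of this sum was KRT8 and KRT18. Summed markers of leukocytes (1.04 to 2.30 CPM), endothelial cells (3.79 to 6.39 CPM) and fibroblasts (3.28 to 8.10 CPM) were low in all libraries, and CD3E was at 0 in each. The part of the KRT18 shift in the results below was not tested, and in bulk RNA fewer expressing cells and less RNA per cell cannot be told apart.

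The family was expressed over a wide range, with a large share of its RNA on a few members. Without SLC25A6, treated separately below, the members took up 0.242% ± 0.00864 (SD, n = 3) of the counts in the control and 0.232% ± 0.0033 (SD, n = 3) in the silenced libraries, and SLC25A5, SLC25A3 and SLC25A39 held between 47.2% and 50.1% of these counts in each library. Per kilobase of transcript, SLC25A5, the ADP/ATP carrier of proliferating cells, had the highest control mean with 403 CPM per kilobase. It was followed by the phosphate carrier SLC25A3 (215) and the glutathione importer SLC25A39 (207), whose control libraries overlapped and which therefore do not differ beyond their spread. The citrate carrier SLC25A1 (66.7) and the dicarboxylate carrier SLC25A10 (54.7) came next, again with control ranges that overlapped. At the other end, the neuronal uncoupling protein UCP4, encoded by SLC25A27, had 1.31 and SLC25A34 had 0.274 CPM per kilobase.

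**Figure D1:**
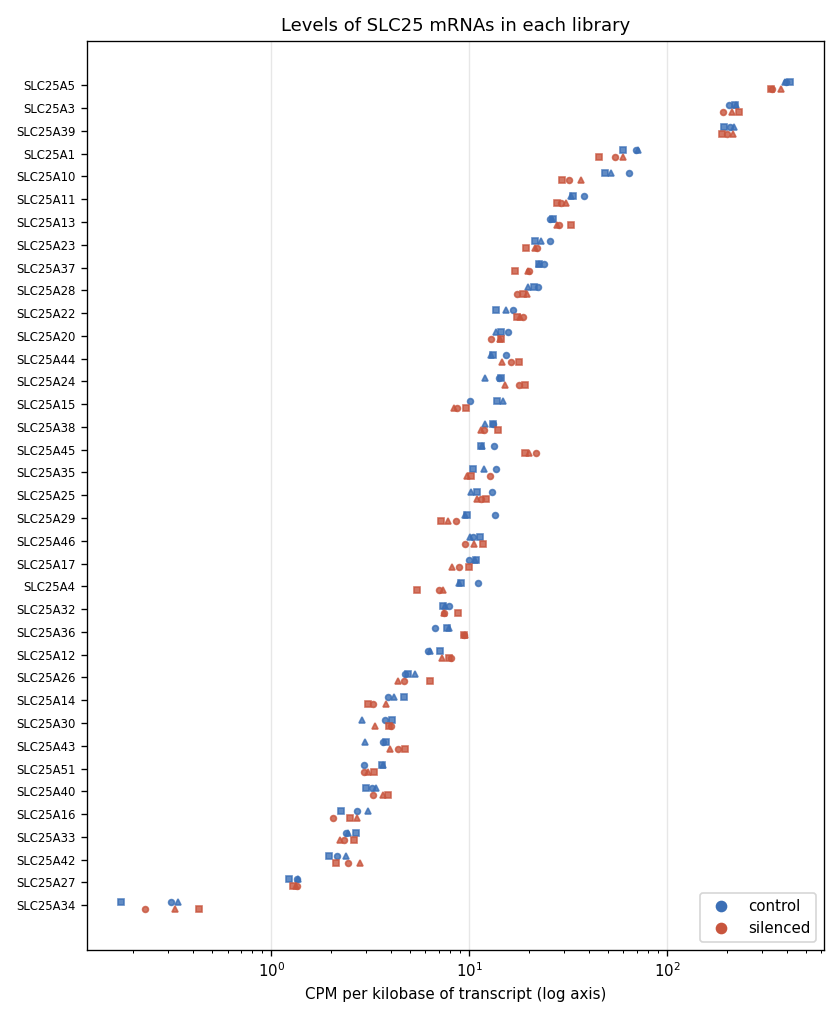
Level of 37 SLC25 mRNAs in each of the 6 libraries, in CPM per kilobase of transcript on a log axis, ordered by the control mean (circles, squares and triangles are replicates 1, 2 and 3; SLC25A6 is not drawn). SLC25A5, SLC25A3 and SLC25A39 lie far above the others, and the points of both groups lie close together for most members.

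Of the 48 members, 39 had enough counts to be tested. SLC25A2, SLC25A31, SLC25A47 and SLC25A48 were at 0 in all libraries. They encode a minor ornithine carrier, the germ-line ADP/ATP carrier, a liver-enriched carrier and a choline importer. A count of 0 leaves room for an expected count of up to about 3 in a library, and only where reads of the gene are counted at all. SLC25A2 lies within a gene of the same strand, TAF7, over 1417 bases, and reads of the pair may be shared. The other untested members had few reads. Summed over all 6 libraries, SLC25A18 had 20 counts, SLC25A21 had 22, SLC25A41 had 38, SLC25A52 had 3 and SLC25A53 had 53. SLC25A18, glutamate carrier 2, had 1, 1 and 2 counts in the control and 5, 2 and 9 in the silenced libraries, too few for a fold change.

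After silencing, 3 members rose (SLC25A45, SLC25A24 and SLC25A36) and 6 fell (among them SLC25A10, SLC25A15, SLC25A4, SLC25A29 and SLC25A37) at an adjusted p under 0.05 (edgeR). These 9 are 23.1% of the tested members, against 17.0% of all tested genes called in either direction. The higher members were 7.69% of the tested ones, against 8.75% of all genes called higher, and the lower members 15.4%, against 8.27% of all genes called lower. No member passed the additional threshold of a fold change over 2, which 2.14% of all genes did, while 17 members (43.6%) had an unadjusted p under 0.05, as did 32.1% of all genes. DESeq2 called 11 members (28.2%) at an adjusted p under 0.05, and 15.3% of all genes to which it gave one. The groups did not overlap for 18 members (46.2%, 7 higher and 11 lower), compared with 36.6% of all genes. The median log2 fold change of the tested members was -0.04, beside -0.001 over all genes, and the median size of the change was 0.203, beside 0.199. The members therefore moved in both directions and by amounts close to those of the whole transcriptome. Without silenced replicate 1, 3 members were called (SLC25A45, SLC25A10 and SLC25A4), and these 3 stayed called whichever of the other libraries was left out.

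**Figure D2:**
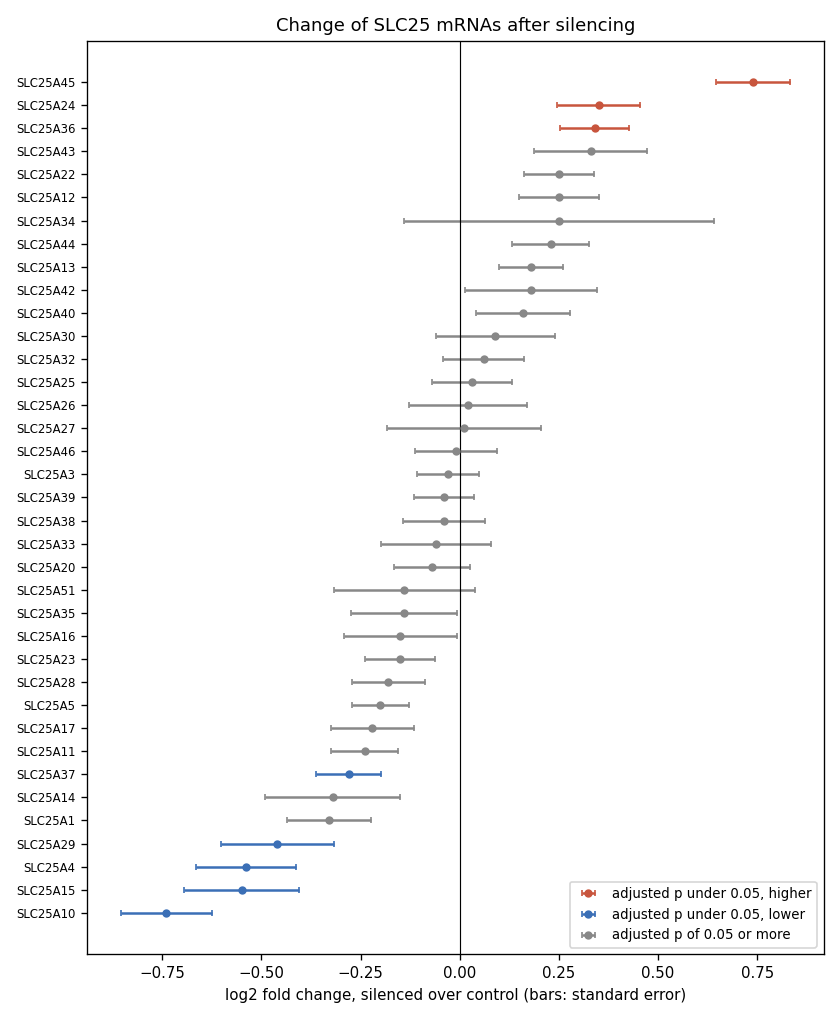
Log2 fold change (silenced over control) of 37 tested SLC25 mRNAs with its standard error as bars (edgeR; red and blue mark members with an adjusted p under 0.05, grey the others; SLC25A6 is not drawn). Values run from -0.74 for SLC25A10 to 0.74 for SLC25A45, with 3 of the members drawn called higher and 5 called lower.

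The carboxylate carriers connect the citric acid cycle with the cytosol. All 4 tested members had a negative fold change, with a median of -0.29, though 1 of them passed the test. Over all tested genes the median was -0.001, and 8.27% were called lower. SLC25A10, the dicarboxylate carrier, which exchanges malate and succinate for phosphate, lies on chromosome 17 from 81712236 to 81721016 (GRCh38). It had 120, 91.6 and 97.8 CPM in the control and 60.2, 55.0 and 69.1 CPM in the silenced libraries. Each silenced library was below each control library. SLC25A10 fell to 59.5% of the control (log2 fold change -0.74, SE 0.115, edgeR adjusted p = 0.00206). AC139530.2, annotated as a protein-coding gene, overlaps it on the same strand over 8304 bases, and reads of the pair may be shared.

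SLC25A11, the oxoglutarate/malate carrier of the malate-aspartate shuttle, had 72.3, 63.4 and 61.7 CPM in the control and 55.1, 52.8 and 58.5 CPM in the silenced libraries. The groups did not overlap, but the difference missed the threshold (log2 fold change -0.24, SE 0.0850, edgeR adjusted p = 0.0730). The citrate carrier SLC25A1, which exports citrate for lipid synthesis, was close to the threshold as well. It had 114, 98.7 and 117 CPM in the control and 89.2, 74.8 and 98.0 CPM in the silenced libraries, again without overlap (log2 fold change -0.33, edgeR adjusted p = 0.0527). SLC25A20, which brings acylcarnitines in for fatty acid oxidation, had a log2 fold change of -0.07 and groups that overlapped.

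Among the amino acid carriers, 2 of 6 tested members fell and none rose, where 8.27% of all tested genes fell and 8.75% rose. SLC25A15 imports ornithine into the mitochondria for the urea cycle and is located on chromosome 13 from 40789412 to 40810111 (GRCh38). It had 16.0, 21.9 and 23.3 CPM in the control and 13.7, 15.3 and 13.2 CPM in the silenced libraries. The lowest control and the highest silenced library lay close together, but the groups did not overlap. SLC25A15 fell to 68.8% of the control (log2 fold change -0.55, SE 0.144, edgeR adjusted p = 0.0245). The call was lost without control replicates 2 or 3 or silenced replicates 1 or 3, with an adjusted p of up to 0.0888. The 5 pseudogene rows of SLC25A15 were at 0 in all libraries.

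SLC25A29, a carrier of basic amino acids such as arginine and lysine, lies on chromosome 14 from 100291111 to 100306547 (GRCh38). It had 32.3, 23.1 and 22.6 CPM in the control and 20.4, 17.1 and 18.6 CPM in the silenced libraries. Control replicate 1 was far above the other control libraries, which were themselves above each silenced library. The fall to 72.0% of the control was close to the threshold (log2 fold change -0.46, SE 0.143, edgeR adjusted p = 0.0469). It missed the threshold without control replicate 1 or 2 and without each of the silenced replicates, with an adjusted p of up to 0.128, and without control replicate 1 the log2 fold change was -0.29. AL157871.6 and AL157871.1 overlap SLC25A29 on the same and the opposite strand. The other 4 tested members of the group had positive fold changes that missed the threshold, from 0.18 for the aspartate/glutamate carrier citrin (SLC25A13) to 0.25 for its paralog aralar (SLC25A12) and for glutamate carrier 1 (SLC25A22). The branched-chain amino acid carrier SLC25A44 had a log2 fold change of 0.23. All 6 had an unadjusted p under 0.05 (edgeR), beside 43.6% of the tested members and 32.1% of all tested genes. None of the 3 uncoupling protein related members did, and a difference between role groups was not tested.

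The carriers of nucleotides and phosphate include the most abundant members, which supply the ATP synthase and export its product. Of 9 tested members 2 rose and 1 fell, where 8.75% of all tested genes rose and 8.27% fell. SLC25A4, the ADP/ATP carrier that prevails in heart and muscle, lies on chromosome 4 from 185143241 to 185150382 (GRCh38). It had 48.9, 40.2 and 39.3 CPM in the control and 31.2, 24.0 and 32.5 CPM in the silenced libraries. The groups did not overlap, and SLC25A4 fell to 68.3% of the control (log2 fold change -0.54, SE 0.126, edgeR adjusted p = 0.0152). Its more abundant paralog SLC25A5 had 505, 532 and 502 CPM in the control and 431, 427 and 479 CPM in the silenced libraries. These groups did not overlap either, but the smaller difference missed the threshold (log2 fold change -0.20, SE 0.0709, edgeR adjusted p = 0.0725). The 9 pseudogene rows of SLC25A5 held counts equal to between 3.33% and 4.87% of those of the gene in each library, so that few reads were assigned to the copies. The phosphate carrier SLC25A3 had 344, 369 and 371 CPM in the control and 323, 386 and 355 CPM in the silenced libraries, with groups that overlapped (log2 fold change -0.03, SE 0.0786, edgeR adjusted p = 0.843).

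SLC25A36, a pyrimidine nucleotide carrier, lies on chromosome 3 from 140941830 to 140980961 (GRCh38). It had 31.0, 35.9 and 36.5 CPM in the control and 43.8, 43.4 and 43.9 CPM in the silenced libraries. The silenced libraries were nearly equal and above each control library. SLC25A36 rose to 127% of the control (log2 fold change 0.34, SE 0.0862, edgeR adjusted p = 0.0225), a call lost without control replicate 1 and without silenced replicate 1 or 3 (adjusted p of up to 0.0773). The other pyrimidine nucleotide carrier, SLC25A33, had 9.15, 10.3 and 9.40 CPM in the control and 8.98, 10.1 and 8.55 CPM in the silenced libraries, which overlapped (log2 fold change -0.06, SE 0.138, edgeR adjusted p = 0.788).

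The carriers of ATP-Mg and phosphate adjust the adenine nucleotide pool of the matrix and bind calcium on the outer face of the membrane. SLC25A24, on chromosome 1 from 108134036 to 108200849 (GRCh38), had 60.2, 62.1 and 51.4 CPM in the control and 76.1, 81.1 and 64.4 CPM in the silenced libraries. The groups did not overlap, and SLC25A24 rose to 128% of the control (log2 fold change 0.35, SE 0.104, edgeR adjusted p = 0.0395), a call lost without any control replicate and without silenced replicate 1 or 2 (adjusted p of up to 0.125). Its paralogs showed no such difference. SLC25A23 had 87.7, 73.3 and 78.4 CPM in the control and 75.4, 66.4 and 73.7 CPM in the silenced libraries (log2 fold change -0.15, SE 0.0884, edgeR adjusted p = 0.269). SLC25A25 had 45.2, 37.9 and 35.5 CPM in the control and 40.0, 42.5 and 38.0 CPM in the silenced libraries (log2 fold change 0.03, SE 0.101, edgeR adjusted p = 0.884). For both paralogs the groups overlapped.

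Carriers of cofactors bring coenzymes made in the cytosol to the enzymes of the matrix. The carriers of folate (SLC25A32), S-adenosylmethionine (SLC25A26), NAD (SLC25A51) and coenzyme A (SLC25A42, with SLC25A16 linked to the same coenzyme), and the peroxisomal carrier SLC25A17, missed the threshold, with log2 fold changes between -0.22 and 0.18, and the groups overlapped for each.

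Among the 5 carriers of iron, glutathione and glycine, SLC25A37 fell, as did 8.27% of all tested genes. SLC25A37 encodes mitoferrin 1, an iron importer best known from red cell precursors. It lies on chromosome 8 from 23528805 to 23575463 (GRCh38) and had 115, 109 and 108 CPM in the control and 96.3, 82.1 and 95.3 CPM in the silenced libraries. The groups did not overlap, with a fall to 82.5% of the control (log2 fold change -0.28, SE 0.0819, edgeR adjusted p = 0.0408). The call was lost when any 1 of the 6 libraries was left out (adjusted p of up to 0.115). Its paralog mitoferrin 2, SLC25A28, had 32.1, 30.7 and 28.8 CPM in the control and 25.1, 27.2 and 28.4 CPM in the silenced libraries, without overlap but short of the threshold (log2 fold change -0.18, SE 0.0917, edgeR adjusted p = 0.211). SLC25A39 and SLC25A40, which import glutathione, had log2 fold changes of -0.04 and 0.16. SLC25A38, which brings glycine in for heme synthesis, had a log2 fold change of -0.04. The groups overlapped for each of these 3 members.

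SLC25A45 had the largest rise of the family. It lies on chromosome 11 from 65375192 to 65383701 (GRCh38) and had 30.5, 26.2 and 26.5 CPM in the control and 49.7, 43.5 and 45.7 CPM in the silenced libraries. The groups were far apart, at 167% of the control (log2 fold change 0.74, SE 0.0935, edgeR adjusted p = 0.000732), and the adjusted p without any 1 library was at most 0.00691. The other tested members with no established or with another role, SLC25A34, SLC25A35, SLC25A43 and SLC25A46, missed the threshold, with log2 fold changes between -0.14 and 0.33. The uncoupling protein related members SLC25A14 (UCP5), SLC25A27 (UCP4) and SLC25A30 (KMCP1) missed it as well, with log2 fold changes of -0.32, 0.01 and 0.09.

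**Figure D3:**
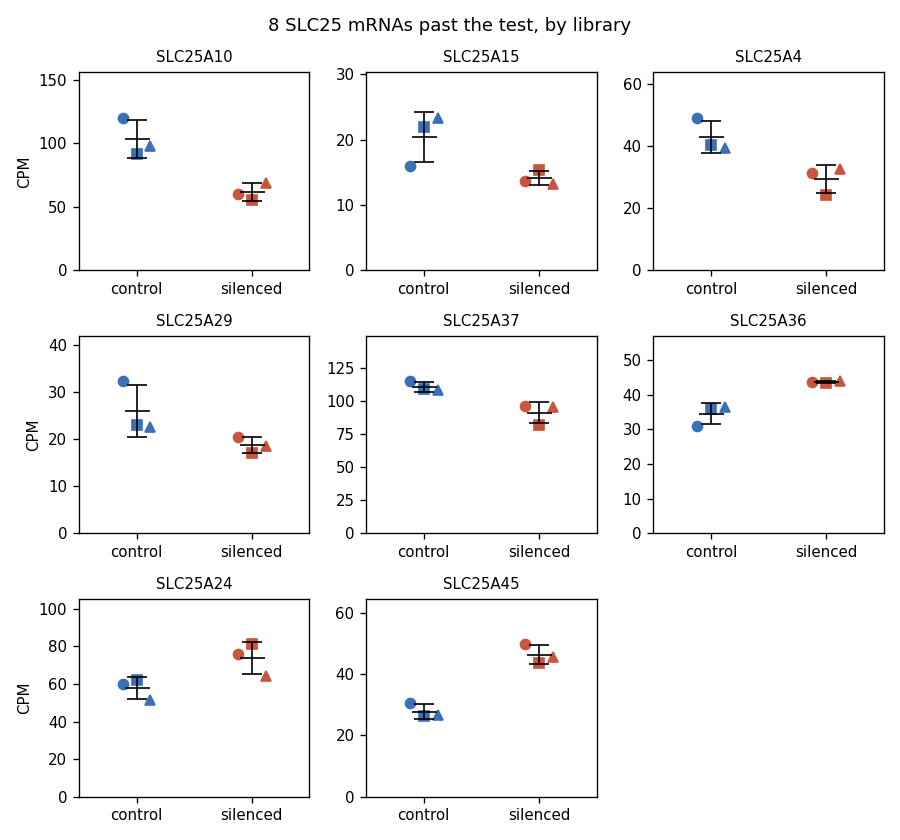
CPM of 8 SLC25 mRNAs with an adjusted p under 0.05, by library (circles, squares and triangles are replicates 1, 2 and 3), with the mean and SD of each group; every axis starts at 0. The groups do not overlap in any panel, and SLC25A10 (59.5% of the control) and SLC25A45 (167%) stand farthest apart.

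Since several substrates have 2 or 3 carriers, the ratio of paralogs within a library was also compared, which does not depend on how libraries are scaled. Of 15 pairs, 10 had a ratio in every library, and the groups did not overlap for 6 of them. For single genes this held for 36.6% of all tested ones, and no share over other gene pairs was taken. All of the 6 but SLC25A39 to SLC25A40 hold a member called above, and SLC25A24 recurs among them, so that the ratios largely restate those calls. The ratio of SLC25A10 to SLC25A11 was 1.67, 1.45 and 1.59 in the control and 1.09, 1.04 and 1.18 in the silenced libraries, a difference of -0.50 on the log2 scale. The ratio of SLC25A33 to SLC25A36 was 0.295, 0.286 and 0.257 in the control and 0.205, 0.232 and 0.195 in the silenced libraries (difference -0.41). For both pairs each silenced library had a lower ratio than each control library. The ratio of SLC25A23 to SLC25A24 differed by -0.50, that of SLC25A24 to SLC25A25 by 0.32, that of SLC25A4 to SLC25A5 by -0.35 and that of SLC25A39 to SLC25A40 by -0.20. With 3 libraries a group, the exact two-sided permutation test cannot go below p = 0.1, the value of each of these 6 pairs (0.167 after Benjamini-Hochberg adjustment over the 10 pairs). The ratios of SLC25A12 to SLC25A13, SLC25A28 to SLC25A37, SLC25A23 to SLC25A25 and SLC25A16 to SLC25A42 overlapped between the groups, with differences of 0.07, 0.10, -0.18 and -0.32.

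**Figure D4:**
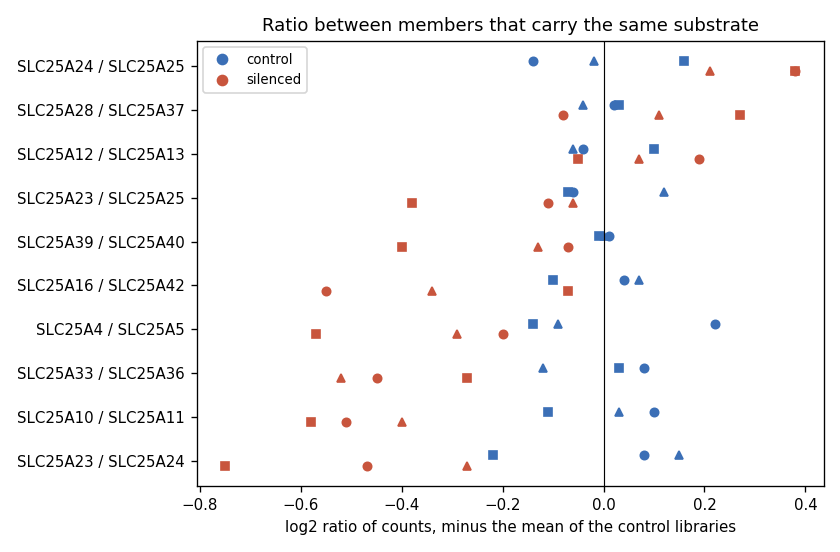
Log2 ratio of counts of 2 SLC25 members with the same substrate in each library, minus the mean of the control libraries (circles, squares and triangles are replicates 1, 2 and 3). The silenced points lie apart from the control points for 6 of 10 pairs, farthest for SLC25A10 to SLC25A11 and SLC25A23 to SLC25A24 (difference -0.50 each).

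SLC25A6, the third ADP/ATP carrier of somatic cells, could not be compared. It had 1978, 1115 and 0 counts in the control and 1149, 0 and 3686 counts in the silenced libraries, so that 1 library of each group was listed at 0 while the other libraries held at least 1115 counts (log2 fold change 0.40, SE 1.25, edgeR adjusted p = 0.862). SLC25A6 is a pseudoautosomal gene with a copy on chromosome X and an identical one on chromosome Y. Of 18 coding genes of the pseudoautosomal regions in the table, 14 were at 0 in all libraries, and CD99 had 259, 316 and 617 counts in the control and 130, 439 and 1 in the silenced libraries. SLC25A5 and SLC25A3, which are more abundant, had no such gaps. How the authors counted reads with 2 matches is not given in the sources used here, and its part in these zeros was not tested.

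**Figure D5:**
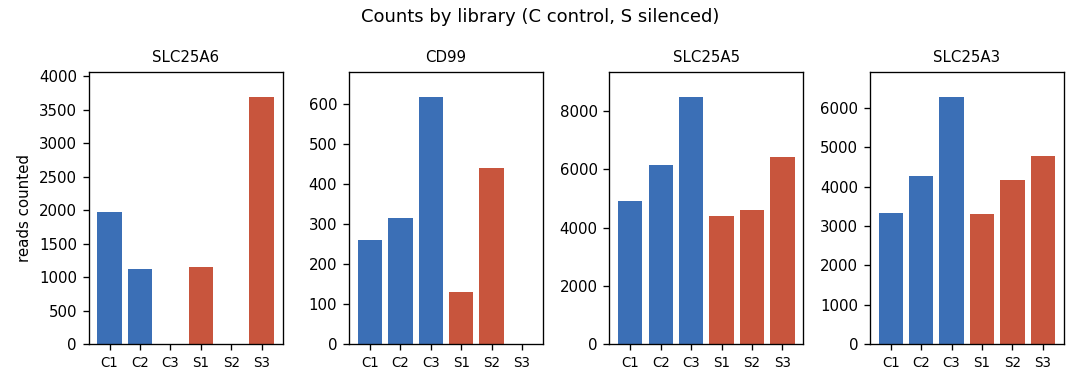
Reads counted for SLC25A6, CD99, SLC25A5 and SLC25A3 in each library (C1 to C3 control, blue; S1 to S3 silenced, red), on linear axes that start at 0. SLC25A6 is at 0 in control 3 and silenced 2 and CD99 at 1 in silenced 3, while no bar of SLC25A5 or SLC25A3 is missing.

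The share of SLC25A5 in the counts of all ADP/ATP carriers includes SLC25A6 and varied widely. It was 66.7% (95% exact binomial interval 65.6 to 67.8), 79.6% (78.7 to 80.5) and 92.7% (92.2 to 93.3) in the control, and 75.0% (73.9 to 76.1), 94.7% (94.0 to 95.3) and 61.0% (60.0 to 61.9) in the silenced libraries, where the intervals cover counting error only. The groups overlapped, with means of 79.7% ± 13.0 and 76.9% ± 16.9 (SD, n = 3 each; exact permutation test, two-sided, p = 0.8). With SLC25A4 and SLC25A5 alone, the share of SLC25A5 was 92.3% ± 0.987 in the control and 93.9% ± 0.749 in the silenced libraries (SD, n = 3 each). This difference of 1.56 percentage points reached the smallest p the design allows (exact permutation test, two-sided, p = 0.1). The share of these 2 genes follows from the ratio of SLC25A4 to SLC25A5 given above and is not a further result.

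The promoters of the members were searched for motifs chosen after the data had been seen. RefSeq promoters (GRCh38.p14, 250 bases before to 50 after the start) were matched by symbol for 33 of the tested members and 7 of the 9 that passed the test. Members and tested genes were counted once, if any promoter of the gene held the motif. The shares over all promoters count each promoter singly and are not a like measure. The CCAAT box, bound by the factor NF-Y, was searched as CCAAT on both strands. It was found in 19 of the 33 members (57.6%), in 43.3% of 9513 tested genes and in 34.6% of all 35116 promoters. Of the 7 members past the test, 5 held it, in promoters of genes that rose and of genes that fell. The core of the ETS factor GABPA, CCGGAAGT, was found on either strand in 4 members (12.1%), in 952 of the 9513 tested genes, a share close to that of the members, and in 4.14% of all promoters. Of these members SLC25A24 rose. The core of NRF1, a regulator of nuclear genes for mitochondrial proteins, GCGCATGC, was in none of the 33 (6.53% of tested genes, 3.05% of all promoters). TCAAGGTCA, the ERR element, and TGATGCAA, bound by ATF4 with C/EBP, were in none either (0.284% and 0.694% of tested genes, 0.353% and 0.866% of all promoters). A match is a description of these letters and not a bound site.

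The windows around the matches are shown for the members past the test, so that the CCAAT box can be compared between promoters of genes that rose and fell. Each reads 5′ to 3′ on the strand of the gene, with the motif in capitals, as CCAAT or as ATTGG where it lies on the other strand, and for SLC25A24 with the GABPA core on the other strand. The windows lie at chr11:65382062-65382090 (minus strand) for SLC25A45, chr3:140941726-140941754 (plus) for SLC25A36, chr1:108200408-108200437 (minus) for SLC25A24, chr17:81712274-81712302 (plus) for SLC25A10, chr4:185143166-185143194 (plus) for SLC25A4, and chr14:100306584-100306612 and chr14:100306525-100306553 (minus) for SLC25A29.
SLC25A45, higher: ctgggcaccaggCCAATtctcaccttccc
SLC25A36, higher: acgacgctcacaCCAATgggagcctctgt
SLC25A24, higher: ccagctccctcACTTCCGGctctctggagg
SLC25A10, lower: gcgcgcgcgcgcATTGGctgtgcggggtg
SLC25A4, lower: gcacctgcccagCCAATgcgcggcgcgag
SLC25A29, lower, upstream window: gcgcacgcccggCCAATgaggcgcggcgg
SLC25A29, lower, downstream window: ccgtgcccgcccATTGGcctcactcggcg

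The 3′-UTRs were searched for CCAATAA, a word that had been picked from these same data because mRNAs holding it tended to be lower after silencing. In GENCODE 29 it was present in 5 of the 39 tested members (12.8%) and in 1471 of 11553 tested genes with an annotated 3′-UTR (12.7%). The median log2 fold change was -0.22 for the 5 members with the word and -0.03 for those without it, beside -0.08 and 0.01 over all genes. A gene was counted as holding the word if any of its annotated transcripts did. Among the 5, SLC25A4 and SLC25A37 fell and SLC25A36 rose. SLC25A10, the member with the largest fall, was not among them. For SLC25A36 the word was taken from a transcript with a 3′-UTR of 2970 bases. Its level per kilobase rests on another transcript, with a 3′-UTR of 3480 bases. Whether the reads of SLC25A36 came from the transcript with the word was not tested, so its rise is no clear case of a holder. The sites of 4 members are shown with the word in capitals, 5′ to 3′ on the mRNA, starting at base 2068 of 3411 of the 3′-UTR of SLC25A4, base 729 of 1204 for SLC25A17, base 1956 of 1990 for SLC25A34 and base 1128 of 2970 for SLC25A36. In the first 3 of these the next base is an A, and in SLC25A36 it is not.
SLC25A4, lower: agatatctaggCCAATAAagtctaaaggg
SLC25A17, not past the test: tcagtcaagtcCCAATAAatggtcagcac
SLC25A34, not past the test: cacactccaaaCCAATAAagttttatatt
SLC25A36, higher: acaatcatttaCCAATAAggaaaccttgg

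Genes that work with the carriers were taken from lists set up by function, with earlier results of these data known. Of the other proteins of the same family under another name, UCP2, an uncoupling protein, had a log2 fold change of 0.22 and the outer membrane proteins MTCH1 and MTCH2 of -0.08 and -0.13, and none of the 4 tested passed the threshold (UCP1 was at 0 in all libraries). UCP2 did pass it with library size only, with the replicate number as a block and without control replicate 3 (edgeR adjusted p = 0.0333, 0.0414 and 0.0324). Of the 16 components of carrier import, 3 fell and none rose, where 8.27% of all tested genes fell and 8.75% rose. TOMM22, a receptor of the TOM complex, fell to 79.7% of the control (log2 fold change -0.33, SE 0.07, edgeR adjusted p = 0.0103). TOMM40, its pore, fell to 76.0% (log2 fold change -0.39, SE 0.0901, edgeR adjusted p = 0.0139). TOMM6, a small subunit of the same complex, fell to 62.8% (log2 fold change -0.66, SE 0.148, edgeR adjusted p = 0.0126). All 3 belong to the outer membrane complex. Among the components that missed the threshold were 2 of the TIM22 pathway, TIMM13 (log2 fold change -0.34) and TIMM22 (-0.18). Their groups did not overlap, as held for 36.6% of all tested genes, and a difference between both complexes was not tested.

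Of 18 other transporters of the mitochondrial membranes, 2 rose and 3 fell, and as for each list named next, the share over all tested genes was 8.75% higher and 8.27% lower. The sideroflexin SFXN3 was among the higher ones (log2 fold change 0.35). LETM1, an ion exchanger (-0.34), ABCB8 (-0.31) and the outer membrane channel VDAC3 (-0.27) were lower. Another list held 12 enzymes around the malate-aspartate shuttle and citrate export, which share their substrates with SLC25A1, SLC25A10 and SLC25A11. Of these, IDH2 rose (0.44) and citrate synthase, CS, fell (-0.35). For IDH2 the groups overlapped, and the call was close to the threshold (edgeR adjusted p = 0.047). Of 14 enzymes of one-carbon, glycine and heme metabolism, 2 rose and 2 fell. ALAS1, the first and rate-limiting enzyme of heme synthesis, was higher (0.35), as was PPOX (0.39), while UROS (-0.62) and MTHFD1L (-0.29) were lower. Of 10 enzymes of proline, ornithine and glutamine metabolism, none rose, and ASNS, asparagine synthetase (-0.82), and PYCRL, a pyrroline carboxylate reductase (-0.52), fell. Among these 16 called genes of the neighboring lists, TOMM40, UROS, ALAS1, ASNS and PYCRL stayed called whichever library was left out, whereas the other 11 were not called without silenced replicate 1 (their adjusted p was up to 0.154 with 1 library left out).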

How the data were processed

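RNA of the 6 A549 libraries was sequenced on an Ion Proton, and the authors mapped and counted the reads per gene with MapSplice and compared groups with DESeq. The deposited values are these raw counts without normalization, and the submitters' processing notes name GRCh37. Strand use and the treatment of reads with several matches are not given in the sources used here. Genes were tested with edgeR 4.0.16 in R 4.3.3 (filterByExpr, TMM, quasi-likelihood F test, Benjamini-Hochberg over 15250 genes), with the SE taken as the size of the log2 fold change over the root of F. Ratios and shares were compared by exact permutation tests over libraries (scipy 1.17.1, Python 3.11.15). Replicates differed by more than counting noise in each pair (chi-square per degree of freedom 4.18 to 29.2), so that none was taken for a repeat deposit.

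The members were found by symbol. Full values are given for members with an adjusted p under 0.05, for SLC25A3, SLC25A4, SLC25A5 and SLC25A6, and for paralogs of called members, and called genes of the neighboring lists are named, up to 6 per list, except for a few genes whose results are not reported here. Members and lists were chosen with earlier results of these data known. The ratio of 2 members was taken where both had been tested and had counts in every library. Locations, transcript lengths and 3′-UTRs came from GENCODE 29 (GRCh38) and promoters from RefSeq (GRCh38.p14), all matched by symbol. The fits were tested on simulated data. The alternatives were DESeq2 1.42.0, library size only, RLE size factors, a minimum of 10 counts in every library or of 1 count in all, thinned counts, an adjusted p under 0.01, the replicate number as a block and each library left out. Added after the data had been seen were rows of type mRNA only and the omission of SLC25A6.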

Additional observations from a re-analysis of the deposited data

How the results depend on the processing

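Of the alternatives for single named genes, 435 values kept direction and side of the threshold, 65 lost and 7 gained the call, and 9 changed sign. The number of members called was 11 with DESeq2, 9 with RLE size factors, 7 with library size only and 8 with thinned counts (SLC25A29 and SLC25A37 lost in both of the latter), 11 with all genes of at least 1 count, 10 with at least 10 counts in every library and 10 with rows of type mRNA only. At an adjusted p under 0.01, 1 member was higher and 1 lower, and with a fold over 2 the counts were 0 and 0. Leaving out 1 library gave 1 to 2 higher and 2 to 4 lower members, the fewest without silenced replicate 1, and 6 to 7 paralog ratios apart. The median log2 fold change was 0.0 with library size only, which moved the median of all genes to 0.035, and ranged from -0.096 (without silenced replicate 2) to -0.007 with 1 library left out.

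The share of SLC25A5 in ADP/ATP carrier counts, -2.78 percentage points after silencing, turned to 1.56 with SLC25A4 and SLC25A5 alone, and ranged from -11.7 to 5.19 with 1 library left out (3.76 without control replicate 3 and 5.19 without silenced replicate 3). Signs also turned for genes that passed no threshold. The log2 fold change of SLC25A6 was -0.19 with the replicate block and ranged from -0.82 (without silenced replicate 3) to 1.48 (without control replicate 1) with 1 library left out, at -0.21 without control replicate 3. SLC25A6 passed the threshold with all genes of at least 1 count (edgeR adjusted p = 0.00015, against up to 0.972 elsewhere). SLC25A3 was at 0.01 with library size only and between -0.09 and 0.04 with 1 library left out, SLC25A25 between -0.05 and 0.13 (also negative, -0.0 and -0.01, without control replicate 2 or silenced replicate 2), and MTCH1 between -0.14 and 0.03. The cause was not tested.

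Libraries of the same number correlated in their deviations from the group means at 0.274, 0.325 and 0.051 over 11249 genes. Libraries of different numbers correlated at -0.303 to 0.134. The labels do not state a pairing, and the main test used none. The study's own supplement numbers the silenced replicates in another order than the deposited table used here, so that the meaning of the numbers is uncertain. With the replicate block, 4 members were higher and 8 lower, with SLC25A1, SLC25A5 and SLC25A22 added to the 9 and none lost, and the median was -0.042. Each library but silenced replicate 3 correlated best with the library of its own number, as a hint from the data. Low counts limit the 9 untested members, for which depth and absent expression were not told apart, and 3 libraries a group limit the exact tests.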
